A study of Caenorhabditis elegans with 10 samples.

Results

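Aminoacyl-tRNA synthetases are the enzymes that attach each amino acid to its own transfer RNA, and their transcripts were examined in the nematode Caenorhabditis elegans with and without xpa-1, the counterpart of the human nucleotide excision repair protein XPA. Genes were taken as members when their symbol in the array's platform annotation had the form of 1 letter for the amino acid, then ars and a number, as in sars-1. This found 33 of the 17118 genes measured: 20 genes numbered 1, 12 numbered 2, and fars-3. Each gene was read from a probe set with a single gene symbol, and where a gene had several, from the one with the highest mean over all 10 arrays. The tested strain carries xpa-1 (ok698) on chromosome I, a deletion allele, and the control strain is Bristol N2, the usual laboratory wild type. Both were untreated worms of mixed stage fed on HT115(DE3) bacteria, with 5 arrays per strain, and each array held total RNA of whole worms from a separate collection of many plates. No mutation other than ok698 is given for the mutant in the labels, and how the strain was bred was not analysed here.

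Protein synthesis in an animal cell runs in the cytosol and, on separate ribosomes, in the mitochondrion, and both need charged transfer RNAs. All synthetases are encoded in the nucleus. Some amino acids have a separate gene for the mitochondrial enzyme, and for others a single gene serves both places by making more than 1 form of the protein. In C. elegans most genes numbered 1 encode the cytosolic enzyme and most numbered 2 the mitochondrial one. The alanine genes are an exception to this naming, since aars-2 encodes the cytosolic and aars-1 the mitochondrial alanyl-tRNA synthetase. The cytosolic phenylalanine enzyme is made of an alpha subunit from fars-1 and a beta subunit from fars-3, while fars-2 encodes the mitochondrial enzyme. RefSeq lists cars-2 as a pseudogene. The genes numbered 1 covered all 20 standard amino acids, and 12 amino acids had a measured gene of both numbers.

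In brief, the synthetase transcripts of xpa-1 worms and N2 worms did not differ beyond the spread between arrays. Of the 33 genes, 0 were higher and 0 lower at an adjusted p under 0.05 in limma, against 0.111% of all genes tested. At an unadjusted p under 0.05 in limma the count was also 0 of 33, against 3.32% of all genes. The 5 xpa-1 arrays overlapped the 5 N2 arrays for every one of the 33 genes, and the strains failed to overlap for only 0.374% of all genes. At such shares few or none of any 33 genes would be counted, so these counts do not set the synthetases apart from other genes. The differences were small as well as uncalled. The 95% interval of the fitted difference lay within 1.25-fold in either direction for 25 of the 33 genes and within 1.5-fold for 31, the exceptions to the wider limit being the dim wars-1 and cars-2.

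All values are log2 probe set signals, so a difference of 1 is a doubling, and each difference is xpa-1 minus N2, given with its fitted standard error (SE). The signals of different probe sets depend on their probes and do not rank transcripts by abundance. The xpa-1 transcript itself checked the labels, with 0 to 1.58 on the mutant arrays against 6.38 to 6.88 on the N2 arrays (limma adjusted p = 4.92e-05), the mutant values being at or near the floor. Array medians lay between 4.00 and 4.25 and 10.3% to 12.3% of the values of an array were at 0, the lowest value the file can hold. These are extracts of whole animals, in which fewer cells of a type and less RNA per cell cannot be told apart.

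**Figure D1:**
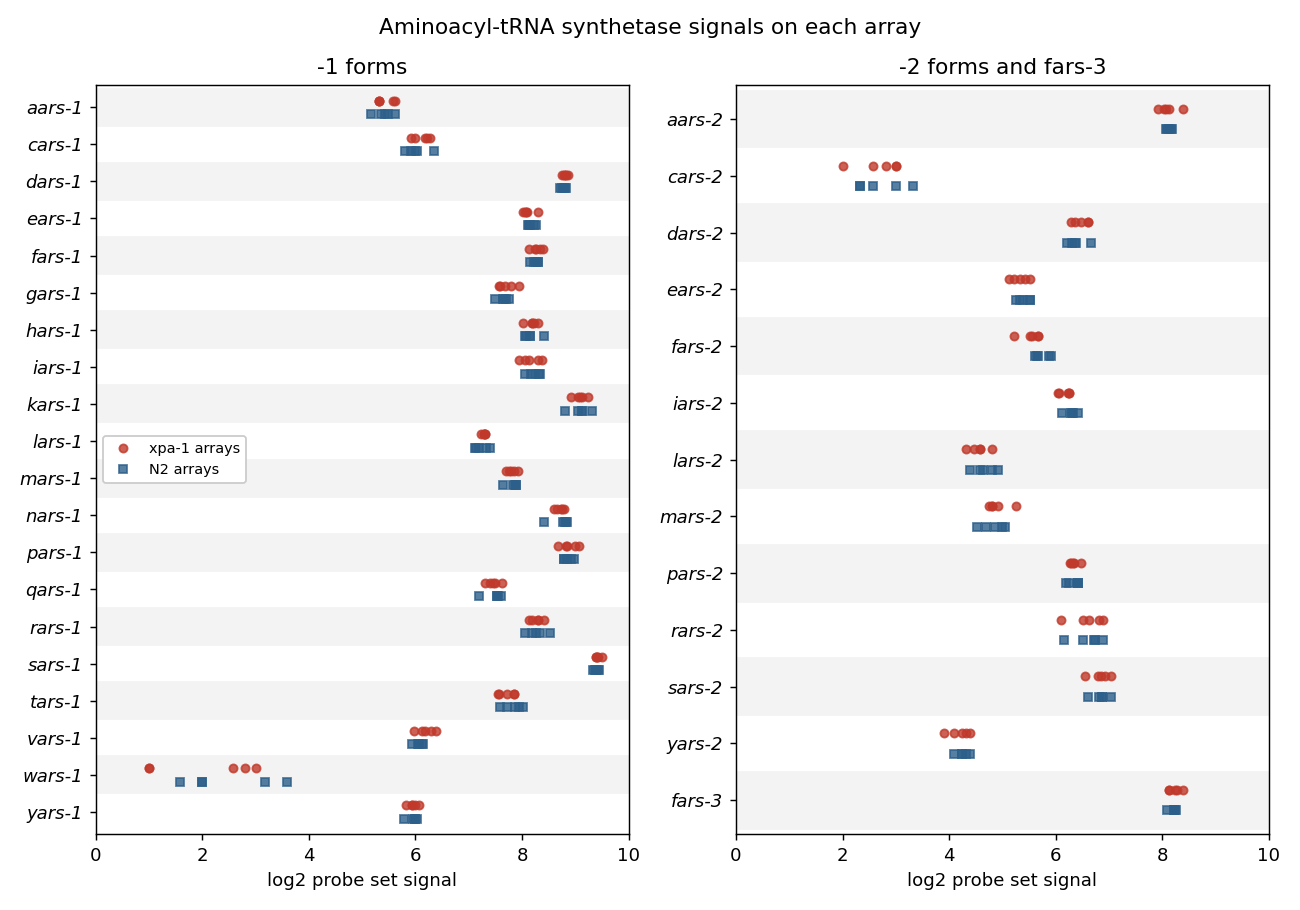
Log2 probe set signal (horizontal axis) of each of the 33 synthetase genes on the 5 xpa-1 arrays (red circles, upper line of each row) and the 5 N2 arrays (blue squares, lower line). The strains overlap in every row, and wars-1 and cars-2 are the widest and dimmest.

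Among the genes numbered 1, vars-1 for valine had the smallest unadjusted p. Its signal was 6.13, 6.29, 5.98, 6.17 and 6.38 on the xpa-1 arrays, against 6.07, 6.15, 5.93, 6.04 and 6.13 on the N2 arrays. On 3 xpa-1 arrays vars-1 stood above all N2 arrays, and the other 2 lay inside the N2 range. The difference was 0.13 (SE 0.085, unadjusted p = 0.173, adjusted p = 1 in limma). It ran from 0.08 without xpa-1 replicate 5 to 0.18 without xpa-1 replicate 3 (unadjusted p = 0.051 in limma). A further valine enzyme gene, glp-4, known for mutants that fail to make a germ line, falls outside the naming rule. Its mean was 6.66 ± 0.17 in xpa-1 and 6.65 ± 0.11 in N2 (SD, n = 5 arrays each). The files and labels do not say which compartment the vars-1 enzyme serves.

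The threonine gene tars-1 leaned the other way. It read 7.84, 7.85, 7.55, 7.56 and 7.71 in xpa-1, against 8.01, 7.86, 7.58, 7.94 and 7.72 in N2. In both strains the arrays fell into a wide range, and 3 of the 5 xpa-1 arrays were inside that of N2. The difference was -0.12 (SE 0.104, unadjusted p = 0.276 in limma), and ran from -0.18 without N2 replicate 3 to -0.07 without N2 replicate 1. The glutamate gene ears-1 read 8.29, 8.08, 8.10, 8.05 and 8.01 in xpa-1, against 8.27, 8.14, 8.13, 8.23 and 8.11 in N2. Here 4 xpa-1 arrays lay below every N2 array, but xpa-1 replicate 1 lay above them all, and the difference was -0.07 (SE 0.069, unadjusted p = 0.336 in limma). With xpa-1 replicate 1 left out it was -0.12, and leaving out xpa-1 replicate 5 or N2 replicate 1 made it -0.05. The cysteine gene cars-1 had 6.21, 6.27, 5.91, 6 and 6.17 in xpa-1, against 6.34, 6, 5.91, 6.02 and 5.81 in N2, a difference of 0.10 (SE 0.113). The highest cars-1 value of all was on an N2 array, so that the xpa-1 arrays sat wholly within the N2 range. Leaving out 1 array gave cars-1 differences from 0.04 without N2 replicate 5 to 0.18 without N2 replicate 1.

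The least certain gene was wars-1 for tryptophan, whose probe set was close to the floor. It read 2.81, 3, 1, 1 and 2.58 in xpa-1, against 3.58, 3.17, 2, 2 and 1.58 in N2. Values at this end of the scale are logs of small whole numbers and move in large steps. The arrays spanned 5.98-fold, the difference was -0.39 (SE 0.55), and the 95% interval ran from -1.63 to 0.85. Without N2 replicate 1 the difference was -0.11, without xpa-1 replicate 3 or 4 it was -0.12, and without xpa-1 replicate 2 it was -0.62. For wars-1 a change of up to 3.09-fold therefore lay inside the interval.

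At the other extreme was the serine gene sars-1, whose probe set had the highest signal of the family and the smallest spread within a strain. It read 9.49, 9.41, 9.39, 9.39 and 9.42 in xpa-1, against 9.37, 9.38, 9.45, 9.42 and 9.33 in N2. The spread within a strain was 0.04 in log2, the difference was 0.03 (SE 0.050), and the interval reached 1.10-fold at its wider end. Leaving out xpa-1 replicate 1 made the difference 0.01. The aspartate gene dars-1 was as tight, with 8.74 to 8.86 in xpa-1 and 8.71 to 8.83 in N2 (difference 0.02, SE 0.051).

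Of the remaining genes numbered 1, differences ran from -0.07 for the isoleucine gene iars-1 (8.16 ± 0.17 in xpa-1 and 8.22 ± 0.11 in N2, SD, n = 5 each) to 0.06 for the glycine gene gars-1 (7.71 ± 0.16 and 7.65 ± 0.10, in the same order). Between them lay the arginine gene rars-1, whose loss in C. elegans is known to protect worms from lack of oxygen, with 8.26 ± 0.11 in xpa-1 and 8.27 ± 0.17 in N2. The lysine gene kars-1 had 9.08 ± 0.12 in xpa-1 and 9.08 ± 0.18 in N2, and the proline gene pars-1 8.88 ± 0.15 in xpa-1 and 8.86 ± 0.09 in N2. The differences were 0.05 for lars-1 (leucine), -0.02 for mars-1 (methionine), -0.03 for nars-1 (asparagine), -0.03 for qars-1 (glutamine), 0.02 for hars-1 (histidine) and 0.002 for yars-1 (tyrosine). None of these genes had an unadjusted p under 0.05 in limma.

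The cytosolic phenylalanine enzyme needs both of its subunits, and neither transcript passed the test. The alpha subunit gene fars-1 read 8.26, 8.33, 8.13, 8.24 and 8.39 in xpa-1, against 8.23, 8.26, 8.29, 8.29 and 8.14 in N2. The beta subunit gene fars-3 read 8.27, 8.39, 8.13, 8.23 and 8.13 in xpa-1, against 8.25, 8.22, 8.21, 8.23 and 8.08 in N2. For each gene 2 xpa-1 arrays lay above all N2 arrays and the others were within or below the N2 range, with a difference of 0.03 each (SE 0.065 for fars-1 and 0.069 for fars-3), and both intervals stayed within 1.14-fold.

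Among the genes numbered 2, the mitochondrial phenylalanine gene fars-2 had the smallest p of the whole family. It read 5.55, 5.67, 5.67, 5.21 and 5.52 in xpa-1, against 5.88, 5.91, 5.67, 5.64 and 5.61 in N2. On 3 xpa-1 arrays fars-2 lay below all N2 arrays, and the other 2 equalled the median N2 array. The difference was -0.22 (SE 0.107, unadjusted p = 0.0723, adjusted p = 1 in limma), and the exact permutation test over all 252 divisions of the arrays, two-sided, gave p = 0.0794, where the smallest p that 5 arrays against 5 can give is 0.00794. The size rested in part on xpa-1 replicate 4, without which the difference was -0.14, and it reached -0.25 without xpa-1 replicate 2 or 3. A second probe set of fars-2, fitted with all probe sets of the array, differed by -0.11 (SE 0.170).

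After fars-2 the smallest p values among the genes numbered 2 were those of iars-2, lars-2 and dars-2, all far from the threshold. For iars-2, which serves isoleucine, the xpa-1 arrays read 6.25, 6.07, 6.23, 6.04 and 6.25, against 6.30, 6.32, 6.29, 6.41 and 6.11 on the N2 arrays. All xpa-1 values of iars-2 were under 4 of the 5 N2 values, and only N2 replicate 5 reached down among them (difference -0.12, SE 0.076, unadjusted p = 0.156 in limma). The leucine gene lars-2, of which a C. elegans mutant is known for long life, read 4.58, 4.32, 4.58, 4.46 and 4.81 in xpa-1, against 4.91, 4.81, 4.64, 4.58 and 4.39 in N2. Its strains overlapped over most of their range, with a difference of -0.12 (SE 0.121, unadjusted p = 0.363 in limma) that ran from -0.19 without N2 replicate 5 to -0.06 without N2 replicate 1. The aspartate gene dars-2, whose human counterpart is mutated in a disease of white matter, read 6.61, 6.60, 6.36, 6.29 and 6.48 in xpa-1, against 6.66, 6.38, 6.30, 6.36 and 6.21 in N2. Its difference was 0.09 (SE 0.102, unadjusted p = 0.420 in limma), with all xpa-1 arrays inside the N2 range, and ran from 0.04 without N2 replicate 5 to 0.16 without N2 replicate 1.

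The alanine genes, whose numbers are the reverse of their compartments, did not stand apart. The cytosolic aars-2 read 7.92, 8.06, 8.12, 8.03 and 8.39 in xpa-1, against 8.08, 8.12, 8.06, 8.19 and 8.16 in N2, a difference of -0.02 (SE 0.088). Its xpa-1 arrays were more spread out (SD 0.18) than its N2 arrays (SD 0.05), a contrast that was not tested. The mitochondrial aars-1 read 5.32, 5.32, 5.32, 5.61 and 5.58 in xpa-1, against 5.61, 5.43, 5.36, 5.49 and 5.17 in N2, a difference of 0.02 (SE 0.102). The pseudogene cars-2 was dim, with 2.58, 2.81, 3, 3 and 2 in xpa-1, against 2.32, 2.32, 2.58, 3 and 3.32 in N2. The difference of cars-2 was -0.03 (SE 0.257), and its sign was the opposite without xpa-1 replicate 5 (0.14) and without N2 replicates 4 (0.04) or 5 (0.12). The remaining genes numbered 2, for glutamate, methionine, proline, arginine, serine and tyrosine, had differences from -0.08 for ears-2 to 0.08 for mars-2, with pars-2 at 0.006, rars-2 and sars-2 at -0.008 each and yars-2 at -0.07.

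**Figure D2:**
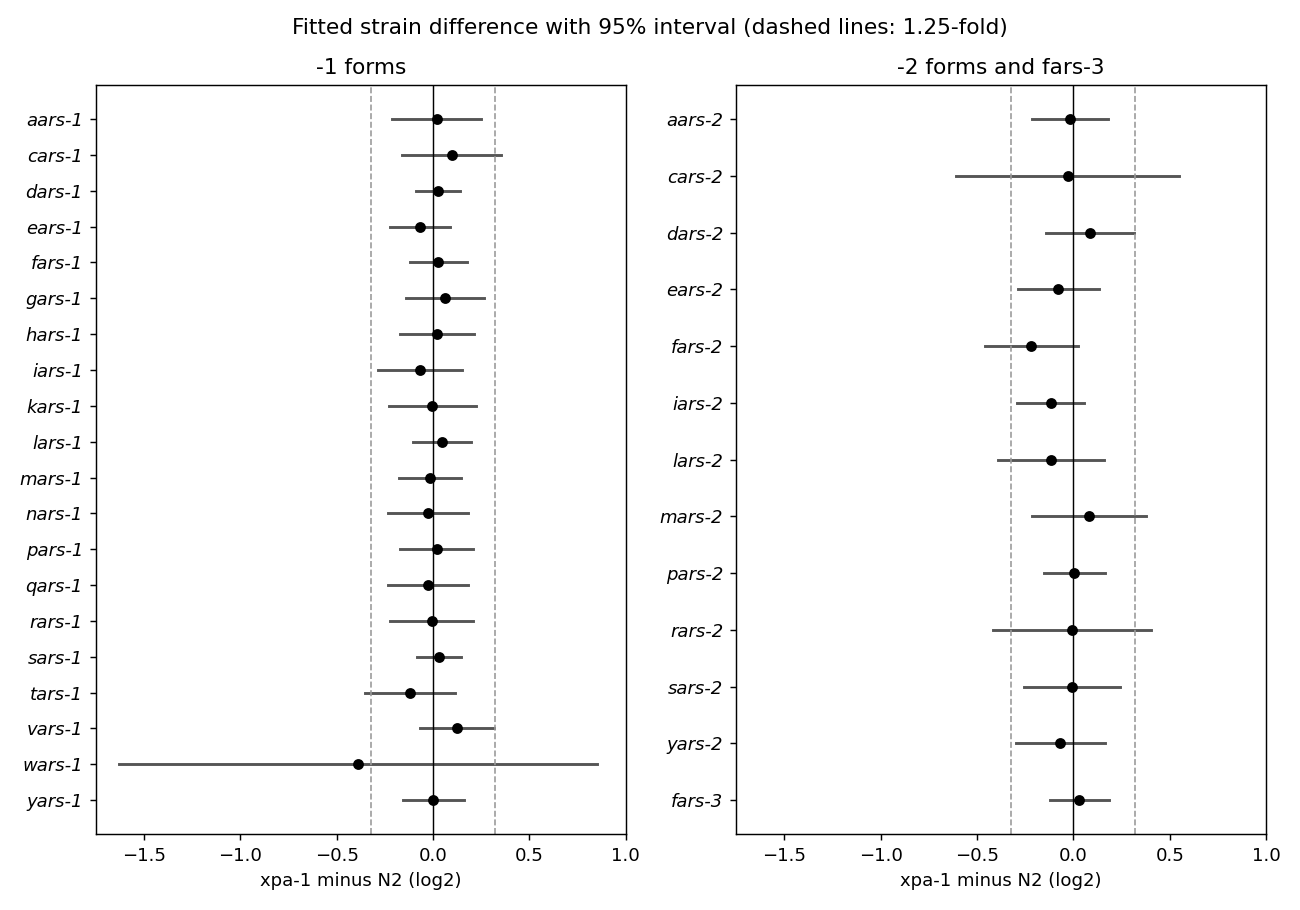
Fitted difference between xpa-1 and N2 in log2 (points, horizontal axis; values above 0 mean higher in xpa-1) with its 95% interval (bars, 5 arrays per strain) for the 33 genes. All intervals include 0, and 25 lie between the dashed lines at 1.25-fold.

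The design of the family allows the forms to be compared. The median difference was 0.01 over the 20 genes numbered 1 and -0.02 over the 12 genes numbered 2, beside 0.02 over all genes tested. Of the genes numbered 1, 11 were above 0 and 9 below, while of those numbered 2, 3 were above and 9 below. The share above 0 was 55.0% and 25.0%, beside 54.7% of all genes. These are descriptions without a test, since genes on the same arrays are not independent of each other. The median of the genes numbered 1 took either sign according to the scaling, at -0.004 with arrays centred on their median and -0.006 after quantile normalization, so it has no settled direction, while that of the genes numbered 2 was -0.04 under both. Leaving out 1 array moved the median of the genes numbered 1 between -0.02 (N2 replicate 5 left out) and 0.03 (N2 replicate 1 left out), and that of the genes numbered 2 between -0.08 (xpa-1 replicate 5 left out) and 0.01 (N2 replicate 4 left out). Genes were also placed by presumed compartment, a grouping chosen after seeing the data. It followed the numbers, with the alanine genes exchanged, fars-3 counted as cytosolic and cars-2 left out. Genes numbered 1 without a gene numbered 2 were counted as cytosolic, although a single gene can serve both places. The medians were then -0.008 for 11 mitochondrial and 0.002 for 21 cytosolic genes, and 4 of the 11 and 11 of the 21 were above 0. With vars-1 moved to the mitochondrial genes the medians were -0.008 for 12 mitochondrial and -0.001 for 20 cytosolic genes.

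Within each array, the mean of the genes numbered 1 minus that of the genes numbered 2, after each gene was centred on its own mean, was 0.07, 0.09, -0.13, 0.01 and 0.03 in xpa-1, against 0.07, 0.02, -0.03, -0.04 and -0.08 in N2. The lowest and the highest of the 10 values were both on xpa-1 arrays. The strain means were 0.01 ± 0.09 in xpa-1 and -0.01 ± 0.06 in N2 (SD, n = 5 each), a gap of 0.03 that is smaller than either spread. Leaving out 1 array gave gaps from 0.009 without xpa-1 replicate 2 to 0.06 without xpa-1 replicate 3. By presumed compartment the gap was 0.03, and 0.005 with vars-1 among the mitochondrial genes.

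The same comparison was made for each of the 12 amino acids with both forms. The difference of the form numbered 1 was above that of the form numbered 2 for 9 of the 12, and below it for methionine and aspartate, while arginine had the same value for both. The 9 include alanine, whose numbers are the reverse of the compartments, and cysteine, where cars-2 is a dim pseudogene. The widest gap was for phenylalanine, where the fars-1 signal minus the fars-2 signal averaged 2.75 ± 0.22 in xpa-1 and 2.50 ± 0.14 in N2 (SD, n = 5 each; difference 0.25, exact permutation p = 0.0714, two-sided). Leucine followed with 0.16 (exact permutation p = 0.238). The exact permutation p was under 0.05 for 0 of the 12 pairs, so no amino acid showed a shift between its forms beyond the spread of the arrays.

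**Figure D3:**
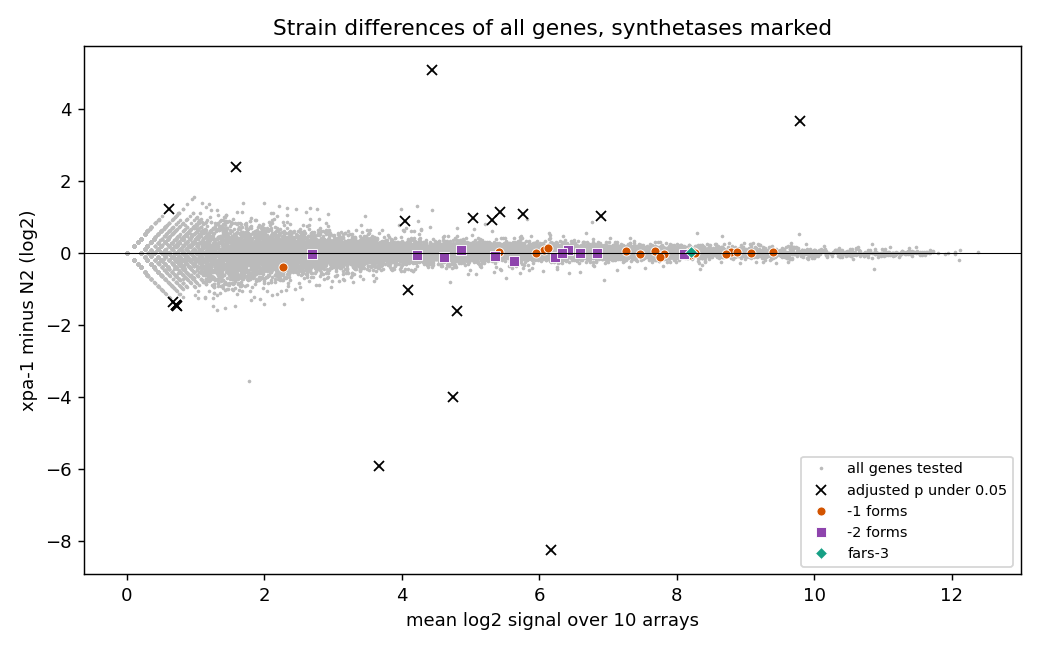
Difference between xpa-1 and N2 in log2 (vertical axis) against the mean log2 signal over 10 arrays (horizontal axis) for all 17118 genes (grey), with the 19 genes past the adjusted threshold as crosses and the synthetases in colour. Apart from the dim wars-1 (-0.39) the synthetases lie between -0.22 and 0.13.

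The family was also sorted in other ways, none of which was tested, and no group held a called gene. Synthetases belong to 2 unrelated structural classes, named class I and class II. Among the genes numbered 1 the median difference was -0.01 over 10 class I genes and 0.02 over 10 class II genes. Among the genes numbered 2 it was -0.07 over 7 class I genes, 6 of them below 0, and -0.008 over 5 class II genes. In mammals 9 of the amino acids are served by enzymes that sit together in a large multisynthetase complex, and the 9 worm genes numbered 1 for these amino acids had a median of -0.008 and a range from -0.07 to 0.05. On chromosome I, which carries xpa-1, lie 11 members with differences from -0.12 to 0.10 (median -0.02), and the 22 on other chromosomes had a median of -0.006. Among those, the 4 on chromosome V had a median of -0.07, with 2 on each side of 0, and 4 of the 5 on chromosome III were above 0 (median 0.02). In the RefSeq gene order of assembly WBcel235 the members cars-1 and cars-2 are neighbours, as are yars-1 and mars-2, and no neighbouring pair held a called gene. The array names 19 of the 33 probe sets as of the classes whose probes can match several transcripts, so that related copies such as cars-1 and cars-2 may not be fully resolved. A further 13 probe sets belong to 11 of the genes. Their differences ran from -0.30 for iars-2 to 0.45 for a dim probe set of aars-2, 7 of the 13 shared the sign of the probe set used, and 0 had an unadjusted p under 0.05 in limma (smallest 0.303).

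The variation that the synthetases did show was between arrays of the same strain. The spread within a strain had a median of 0.13 in log2 over the genes numbered 1 and 0.16 over those numbered 2, beside 0.21 for all genes with a mean signal over 4. With the dimmer genes included it was 0.32. The genes were not matched for signal, and the members include the dim wars-1 and cars-2, so these medians do not show the family to be steadier than others. The arrays differed in the mean of the family as well. With each gene centred on its own mean, the genes numbered 1 averaged 0.07, 0.07, -0.14, -0.10 and 0.08 on the xpa-1 arrays, against 0.17, 0.05, -0.05, 0.02 and -0.16 on the N2 arrays. The highest and the lowest array were thus both N2, replicates 1 and 5, and the 10 arrays spanned 1.25-fold.

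The counts of single genes show the same arrays. On N2 replicate 1, 16 of the 20 genes numbered 1 lay above their own mean and 7 were at their highest, beside 49.1% and 17.5% of all genes. On N2 replicate 5, 17 of the 20 lay below their own mean and 9 were at their lowest, beside 53.9% and 34.4% of all genes. On xpa-1 replicate 3, 18 of the 20 lay below, beside 45.9% of all genes. The mean of the genes numbered 2 was likewise highest on N2 replicate 1 (0.10), but lowest on xpa-1 replicate 4 (-0.11), followed by N2 replicate 5 (-0.07). Of these 12 genes, 10 lay above their own mean on N2 replicate 1 and 10 on xpa-1 replicate 5, beside 49.1% and 48.7% of all genes. On xpa-1 replicate 4, 9 lay below, and on N2 replicate 5, 8 lay below, beside 52.1% and 53.9% of all genes. On each of xpa-1 replicates 2 and 3 and N2 replicate 3, 7 lay below, beside 50.7%, 45.9% and 53.0%.

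Marker lists of the cell types in a mixed culture also differed between arrays, some at the same arrays and some at others. The 16 oocyte and germline markers, all measured, averaged -0.07, 0.15, -0.07, -0.11 and 0.21 on the xpa-1 arrays, against 0.32, 0.11, -0.10, -0.03 and -0.42 on the N2 arrays. The germline list and the genes numbered 1 were both highest on N2 replicate 1 and both lowest on N2 replicate 5. The match was not limited to the synthetases, since 32 initiation factor genes had the same ends (0.09 and -0.19). The 20 measured genes on a list drawn up for transfer RNA maturation and modification were also lowest on N2 replicate 5 (-0.26), but highest on xpa-1 replicate 5 (0.19). The 10 markers of hypodermis and molt ran from -0.66 to 0.50 in xpa-1 and from -1.07 to 0.62 in N2, lowest on N2 replicate 1 and highest on N2 replicate 5. The germline list averaged 0.02 ± 0.15 in xpa-1 and -0.02 ± 0.27 in N2 (SD, n = 5 each), so the strains did not differ in it beyond the spread. With the germline list as a covariate the count of synthetases past the threshold in limma was again 0, and the difference of fars-2 was -0.24 (SE 0.093, adjusted p = 1 in limma). Whether the makeup of the cultures set the array differences was not tested. Of the other marker lists, sperm (9 of 12 measured) spanned 3.96-fold between arrays, neuron (10) 2.09-fold, muscle (10) 1.73-fold and intestine (10) 1.28-fold, and 0 of their genes passed the threshold. Their ends fell partly on other arrays. Sperm was highest on N2 replicate 4 (0.81) and lowest on N2 replicate 2 (-1.17), muscle was highest on N2 replicate 5 (0.38) and lowest on xpa-1 replicate 5 (-0.41), and intestine was highest on xpa-1 replicate 3 (0.16) and lowest on N2 replicate 1 (-0.19). The neuron list was highest on N2 replicate 5 (0.48) and lowest on N2 replicate 1 (-0.59). The muscle list averaged -0.07 ± 0.32 in xpa-1 and 0.07 ± 0.22 in N2 (SD, n = 5 each), and its 10 genes all had differences below 0 (median -0.14), but the strains overlapped and its part in the synthetase values was not tested.

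**Figure D4:**
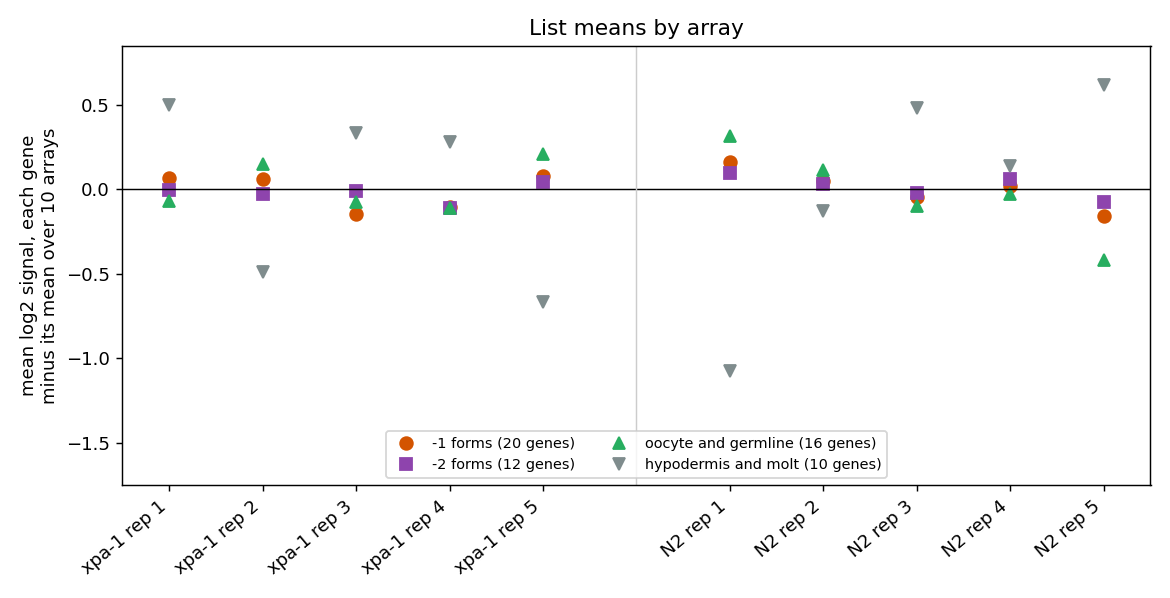
Mean of each list on each array in log2 (vertical axis), after every gene was centred on its own mean over the 10 arrays, for xpa-1 arrays (left) and N2 arrays (right). The synthetases numbered 1 are highest on N2 replicate 1 (0.17) and lowest on N2 replicate 5 (-0.16), as are the germline markers, while the hypodermis markers are in the opposite positions.

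The rest of the translation machinery was measured on the same arrays. Of 75 cytosolic ribosomal protein genes, 0 passed in limma in either direction, with a median difference of 0.002, and rpl-8 stood at 11.74 ± 0.06 in xpa-1 and 11.72 ± 0.10 in N2 (SD, n = 5 each). The smallest p of that list was for rpl-41.1 (difference -0.11, unadjusted p = 0.281 in limma). The 6 genes of the cytosolic elongation factors had 0 past the threshold and a median of -0.02, and eef-1A.1, which brings charged transfer RNAs to the ribosome, stood at 11.66 ± 0.07 in xpa-1 and 11.66 ± 0.08 in N2. Its paralog eef-1A.2 had the smallest p of the 6 (difference -0.10, unadjusted p = 0.485 in limma). Of 32 initiation factor genes 0 passed (median 0.03), and iff-1, a form of the factor eIF5A known for its role in the worm germ line, stood at 10.91 ± 0.16 in xpa-1 and 10.89 ± 0.20 in N2. The smallest p there was that of eif-2Bdelta, a subunit of the exchange factor that recharges eIF2 with GTP, at 4.65 ± 0.13 in xpa-1 and 4.41 ± 0.14 in N2 (difference 0.23, unadjusted p = 0.0274, adjusted p = 1 in limma).

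On the mitochondrial side, 59 ribosomal protein genes had 0 past the threshold and a median of 0.03, with 39 above 0 (66.1%, beside 54.7% of all genes). The mrpl-28 transcript had the smallest p of them (difference 0.18, unadjusted p = 0.0762 in limma), and the brightest, mrpl-51, stood at 8.33 ± 0.16 in xpa-1 and 8.32 ± 0.07 in N2 (SD, n = 5 each). The 5 measured mitochondrial translation factor genes also had 0 past the threshold, and tufm-1, the mitochondrial counterpart of elongation factor Tu, stood at 8.62 ± 0.11 in xpa-1 and 8.60 ± 0.12 in N2 (SD, n = 5 each). The tufm-2 transcript had the smallest p there (difference 0.11, unadjusted p = 0.255 in limma). Of 20 genes of transfer RNA maturation and modification 0 passed, though 17 had a difference above 0 (median 0.05), and gro-1, which modifies a base beside the anticodon, had the smallest p (difference 0.10, unadjusted p = 0.193 in limma). The brightest of the list, tut-2, which takes part in thiolation of transfer RNAs, stood at 7.06 ± 0.22 in xpa-1 and 7.02 ± 0.18 in N2.

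Uncharged transfer RNAs are sensed by the kinase GCN-2, which starts the response to amino acid shortage. Of 9 measured genes on a list drawn up for that response, 0 passed in limma and the median difference was 0.04. The list also holds pek-1, the gene of a kinase other than GCN-2. The asparagine synthetase gene asns-2, which makes asparagine and is not a transfer RNA synthetase, averaged 5.90 ± 0.15 in xpa-1 and 5.53 ± 0.37 in N2 (SD, n = 5 each), a difference of 0.37 (SE 0.173, unadjusted p = 0.0591, adjusted p = 1 in limma). The cystathionine gamma-lyase gene cth-2, the brightest of the list, averaged 9.11 ± 0.09 in xpa-1 and 9.24 ± 0.17 in N2.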

How the data were processed

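RNA of 10 collections of whole worms (5 xpa-1, 5 N2) was measured on Affymetrix arrays. The authors deposited 1 log2 signal per probe set and array, made with Affymetrix Expression Console per the submitters' processing notes; the sources used here give no method, background step or scaling. Of values below 5, 100% matched the log2 of some whole number to 0.005. Of 22625 probe sets, 77 controls were left out; of the other 22548, 20766 had 1 symbol, 887 several and 895 none. The log2 values were used as deposited, with no filter. The strains were compared across all 17118 genes with limma 3.58.1 in R 4.3.3 (lmFit, eBayes, strain as the only term, two-sided, Benjamini-Hochberg over all genes, threshold 0.05). The fit was checked on simulated data whose noise was independent between genes, so shifts shared by the genes of an array were not covered. The members and lists were chosen with earlier results of these data known. Given array by array were the genes of smallest p (5 numbered 1, 4 numbered 2), the brightest and dimmest of each, and fars-3; aars-1, fars-1 and dars-1 were added after their values were seen. Each context list names its brightest gene and its gene of smallest p. Arrays have no read depth, and their number limits the precision.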

Additional observations from a re-analysis of the deposited data

Results flagged for a closer look

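A single array stood far from the other 4 of its strain in 6 of 70 groups of 5 values tested. For independent groups chance gives about 1 in 20. These groups were read on the same arrays and are not independent, so the count cannot be judged by that rate. In 4 of the 6 the array was N2 replicate 5, each time low, and 34.4% of all genes were at their lowest on that array. There qars-1 read 7.20 against 7.52 to 7.60 on the other N2 arrays, nars-1 read 8.41 against 8.76 to 8.84, mars-1 read 7.64 against 7.83 to 7.88, and fars-3 read 8.08 against 8.21 to 8.25. On N2 replicate 1, hars-1 read 8.41 against 8.06 to 8.15. On xpa-1 replicate 2, lars-1 read 7.22 against 7.29 to 7.31. Without N2 replicate 5 the count of synthetases past the threshold in limma was 0, and the median difference was -0.02 over the genes numbered 1 and -0.06 over those numbered 2.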

How the results depend on the processing

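Over 21 alternatives, 10 of which each left out 1 array, the count of synthetases past the threshold in limma was 0 in all 19 that refitted it. Single members had an unadjusted p under 0.05 in 3 of them, namely iars-2 in limma after quantile normalization (unadjusted p = 0.0394, adjusted p = 1) and without N2 replicate 5 (unadjusted p = 0.0449, adjusted p = 1), and fars-2 with the germline list as a covariate (unadjusted p = 0.0329, adjusted p = 1). The count over all genes was 19, and 13 to 21 without 1 array. It was 12 when only genes with a mean over 4 were tested, and 5 with replicate number as a replicate block; the cause was not tested. With deviations taken within each strain, same-numbered arrays did not deviate together (correlations over genes from -0.27 to -0.03). Arrays of unlike number had correlations from -0.33 to 0.28. Whether arrays of the same number shared a batch was not tested. Of the 13 named members, 4 took the opposite sign somewhere, never past the threshold. These were sars-1 (-0.01) and aars-2 (0.22) with the mean of all probe sets, cars-2 with array weights (0.0198) and with the germline covariate (0.0382), and, leaving out 1 array, aars-2 (-0.0895 to 0.028), cars-2 (-0.127 to 0.14) and fars-3 (-0.008 to 0.057). The form given by RefSeq product names was not run, since the gene table used holds none, and the within-array class value was not run with array weights. The intervals of 25 members stayed within 1.25-fold, and those of the others reached further, such as 1.38-fold for fars-2 and 3.09-fold for wars-1. Changes inside these intervals may have gone undetected with 5 arrays a strain, and wars-1 and cars-2 lie near the floor of the signal.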
